A study of Mus musculus with 12 samples.

Results

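Aminoacyl-tRNA synthetases are described here in 2 mouse comparisons, regulatory T (Treg) cells of the injured spinal cord against Treg cells of the spleen, and primary microglia cultured with Treg cells against control microglia. The members were the genes on a list of 7 synthetases whose symbol has a row in either deposited table, namely Lars2, Mars2, Yars2, Iars, Rars, Kars and Wars. All 7 were found, of 3186 genes with a row in at least 1 table. Lars2, Mars2, Yars2 and Iars have a row in the Treg table (4 of 1284 genes), and Rars, Kars and Wars have one in the microglia table (3 of 2186 genes). None of the 7 has a row in both tables, which share 284 genes, 22.1% of the Treg table and 12.99% of the microglia table.

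Each synthetase joins 1 amino acid to its transfer RNA (tRNA), which then carries it to the ribosome. Cytosol and mitochondria translate separately, and most amino acids have a nuclear gene for each compartment, the mitochondrial one usually marked by the suffix 2. In mammals some cytosolic synthetases sit together in a multi-synthetase complex, to which the isoleucyl, arginyl and lysyl enzymes belong. The tryptophanyl enzyme stands apart from that complex and is known as an interferon gamma-induced gene.

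Messenger RNA was sequenced in bulk from 12 libraries in 4 groups of 3. Treg cells, T cells that restrain immune responses, came from the injured spinal cord (n = 3) and from the spleen (n = 3), 14 days after spinal cord injury. Primary microglia, brain macrophages kept in culture, were co-cultured with Treg cells (n = 3) or were unstimulated controls (n = 3). Mouse strain, age, the markers used for sorting and the source of the co-cultured Treg cells are not stated in the labels. Nor do the labels tie the 3 libraries of a group to different animals or cultures, and their spread may therefore be technical. Levels are FPKM, fragments scaled by transcript length and library total, so they can be compared between genes of 1 table. The authors kept in each table the genes they had called changed, all at least 1 away from 0 in log2 fold change. The synthetases were thus chosen on the contrasts described here, and their differences are given as a description, with no test. Synthetases that have no row are not analysed here, and the depth of sequencing is unknown. FPKM summed over the Treg table lay between 111243 and 134887 in the spinal cord libraries and between 64893 and 65362 in the spleen libraries. Over the microglia table it lay between 115884 and 117408 in co-culture and between 59529 and 61068 in the controls.

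In Treg cells of the injured spinal cord, 3 mitochondrial synthetases and 1 cytosolic synthetase stood below their spleen level in every library. Mean levels were between 15.3% (Yars2) and 39.9% (Iars) of the spleen mean. The groups did not overlap for any of the 4, which is the common case in this table: of the 1072 genes with a mean of at least 1 FPKM, 97.6% did not overlap between the groups, 59.0% being higher and 38.5% lower in the spinal cord. By limma, fitted over the same genes, 99.6% were called changed, 61.0% higher and 38.6% lower. In bulk samples, fewer cells of a type and less RNA per cell cannot be told apart.

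Yars2 (NCBI gene 70120, chromosome 16, 16302965 to 16309640, GRCm38.p6), the mitochondrial tyrosyl-tRNA synthetase, had 2.74, 2.19 and 0.63 FPKM in spinal cord Treg cells and 13.2, 14.2 and 9.01 FPKM in spleen Treg cells. The groups did not overlap, and the lowest value of each group was in its library 3. Its mean was 1.85 ± 1.09 FPKM in the spinal cord and 12.1 ± 2.74 FPKM in the spleen (SD, n = 3 each), 6.54-fold lower in the spinal cord. On the log2(FPKM + 1) scale the difference, spinal cord minus spleen, was -2.26 (SE 0.36), the widest of the 4. Of the 414 genes of the fitted Treg table that lay below the spleen, 13 (3.14%) had a larger difference.

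Lars2 (gene 102436, chromosome 9, 123366927 to 123462675), the mitochondrial leucyl-tRNA synthetase, had 1.91, 0.40 and 1.6 FPKM in the spinal cord and 3.92, 6.48 and 5.76 FPKM in the spleen. It was the lowest of the 4 in level, and its nearest libraries were 2.01 FPKM apart. Its difference was -1.52 (SE 0.35) on the log2(FPKM + 1) scale, a 4.13-fold lower mean in the spinal cord. Human mutations in LARS2 are known from hearing loss with ovarian failure.

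Mars2 (gene 212679, chromosome 1, 55237177 to 55240058), the mitochondrial methionyl-tRNA synthetase, which also serves initiation in mitochondria, had 4.39, 3.03 and 4.61 FPKM in the spinal cord and 11.3, 14.4 and 10.2 FPKM in the spleen. All spinal cord libraries lay below all spleen libraries, by at least 5.54 FPKM. The mean was 2.98-fold lower in the spinal cord, a log2(FPKM + 1) difference of -1.37 (SE 0.29).

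Iars (gene 105148, chromosome 13, 49682130 to 49734267), the cytosolic isoleucyl-tRNA synthetase of the multi-synthetase complex, had 57.5, 33.5 and 34.5 FPKM in the spinal cord and 112, 110 and 92.1 FPKM in the spleen. Spinal cord library 1 stood above the other two, and the groups stayed 34.6 FPKM apart. Its mean was 41.8 ± 13.6 FPKM in the spinal cord and 105 ± 11.1 FPKM in the spleen (SD, n = 3 each), a 2.51-fold lower mean and a log2(FPKM + 1) difference of -1.34 (SE 0.22).

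The order of mean levels was Iars, Mars2, Yars2 and Lars2 in the spinal cord. In the spleen it was Iars, Yars2, Mars2 and Lars2, but Yars2 (12.1 ± 2.74 FPKM) and Mars2 (11.9 ± 2.20 FPKM) lay within their spread of each other there. In the spinal cord Mars2 (4.01 ± 0.856 FPKM) lay above Yars2 in all 3 libraries, while Yars2 and Lars2 (1.303 ± 0.798 FPKM) overlapped. The coefficient of variation within the spinal cord group was 61.2% for Lars2 and 59.1% for Yars2, against 32.5% for Iars and 21.3% for Mars2. Spinal cord library 2 held the lowest value of Lars2, Mars2 and Iars, and library 3 the lowest of Yars2.

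**Figure D1:**
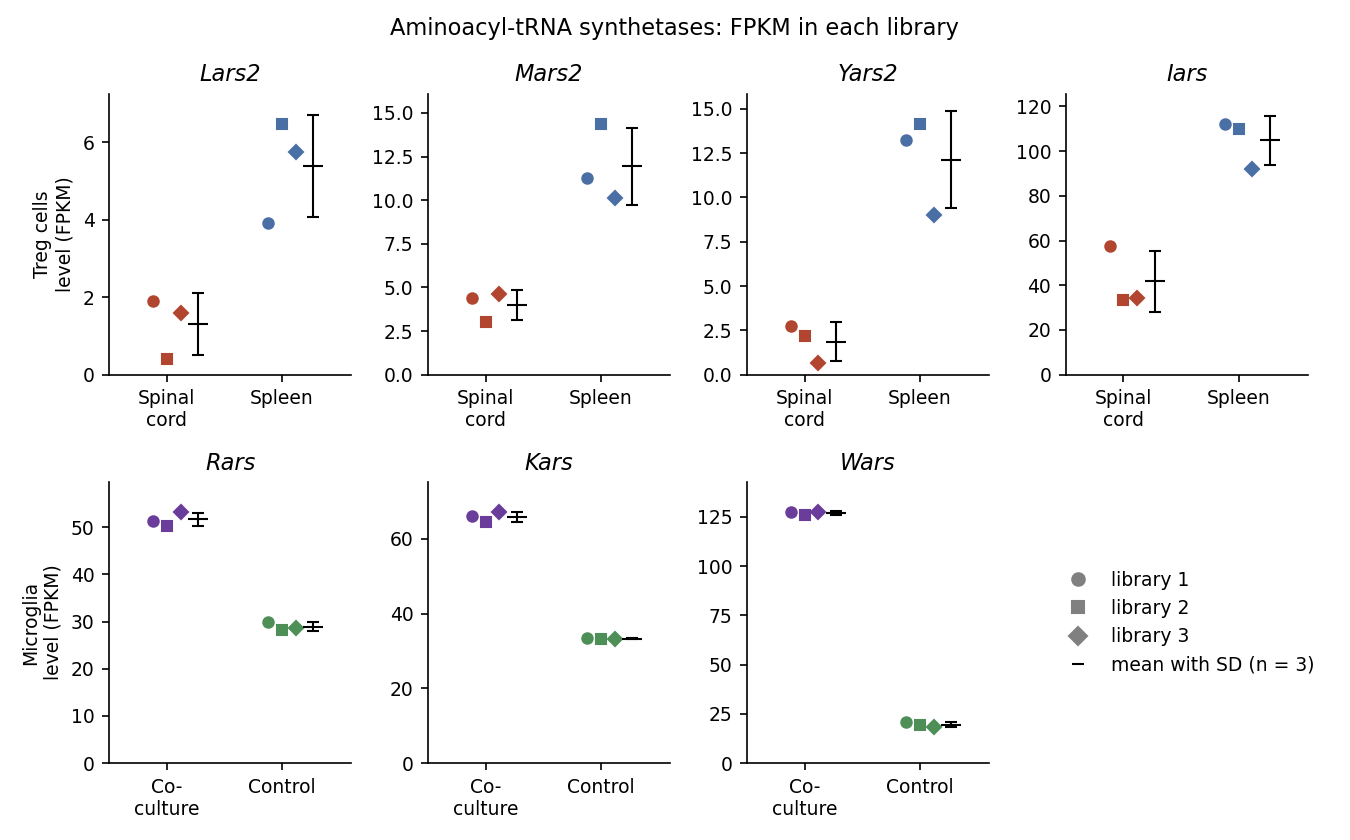
Level of each synthetase in FPKM (vertical axes, from 0, 1 scale per gene) in each library, with the mean and SD of 3 libraries as bars; Treg cells in the upper row and microglia in the lower row. Lars2, Mars2, Yars2 and Iars sit lower in every spinal cord library than in every spleen library, and Rars, Kars and Wars sit higher in every co-culture library than in every control library.

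The median difference of the 4 was -1.44 on the log2(FPKM + 1) scale, against -1.29 over all 414 lower genes and 0.95 over all 1072 genes. The authors' deposited table gave log2 fold changes of -2.61 for Yars2, -1.94 for Lars2, -1.46 for Mars2 and -1.22 for Iars. That of Iars lay nearest to the authors' limit, with 303 of 1284 genes smaller in size in the authors' deposited table. The summed FPKM of the table was 1.92-fold higher in the spinal cord, so scaling every library to the same total widened the differences. They then ran from -2.16 (Lars2) to -2.99 (Yars2).

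**Figure D2:**
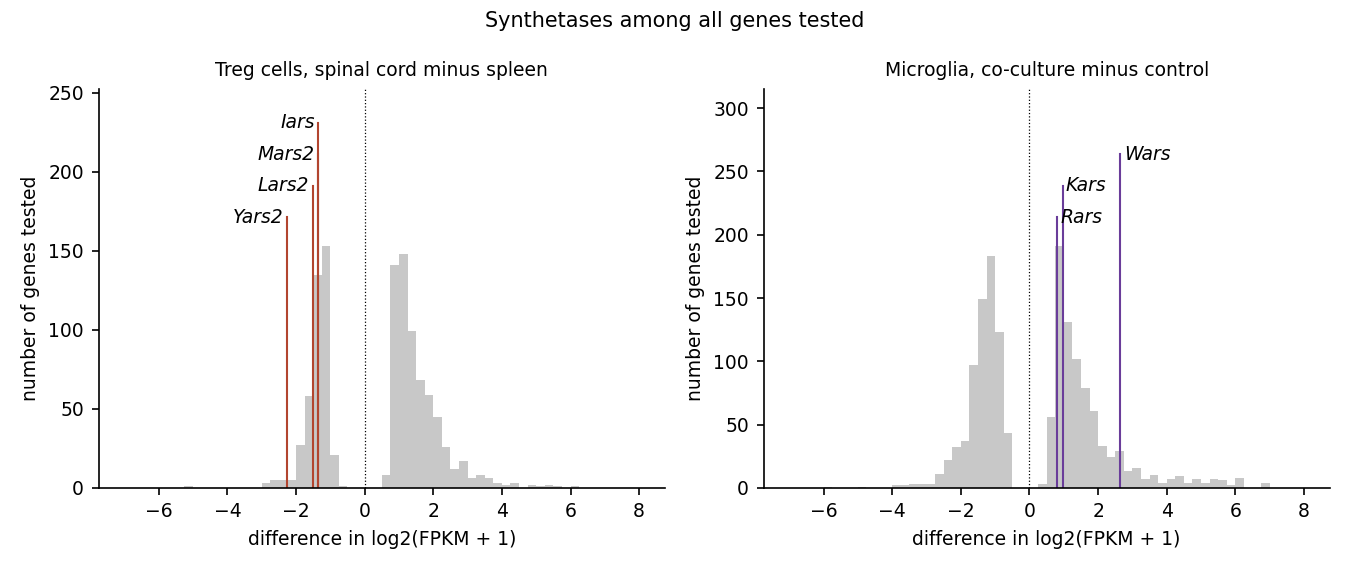
Number of genes (vertical axis) by difference in log2(FPKM + 1) (horizontal axis), spinal cord minus spleen for 1072 genes of the Treg table at left and co-culture minus control for 1529 genes of the microglia table at right, with each synthetase as a vertical line. Yars2 (-2.26) stands in the outer part of the lower genes and Wars (2.65) beyond most higher genes, while Rars (0.81) and Kars (0.96) lie near the inner edge, where the tables end.

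The promoter sequences of RefSeq (GRCm38.p6), from 250 bases before to 50 bases after the start of a gene, were found for 5 of the 7 synthetases, Lars2, Mars2, Yars2, Iars and Kars. Those of Yars2 and Iars are shown because these genes had the widest difference and the highest level among the 4 lower synthetases. Each is given 5′ to 3′ on the strand of the gene for the 250 bases before the start, in lower case, with motif matches in capitals.
Yars2, chr16:16302715-16302964, plus strand: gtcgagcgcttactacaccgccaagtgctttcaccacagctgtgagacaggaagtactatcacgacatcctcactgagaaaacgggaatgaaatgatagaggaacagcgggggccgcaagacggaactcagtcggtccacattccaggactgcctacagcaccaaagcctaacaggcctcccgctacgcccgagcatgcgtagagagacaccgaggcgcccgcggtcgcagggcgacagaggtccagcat
Iars, chr13:49681880-49682129, plus strand: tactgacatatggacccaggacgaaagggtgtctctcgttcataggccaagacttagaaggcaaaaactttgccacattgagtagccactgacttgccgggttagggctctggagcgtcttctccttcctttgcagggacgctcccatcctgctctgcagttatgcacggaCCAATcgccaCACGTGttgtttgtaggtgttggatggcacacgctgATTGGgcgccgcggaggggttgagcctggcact
The motifs searched, on both strands of the whole 300 bases, were the C/EBP-ATF response element TGATGNAAT, through which ATF4 acts on genes of the amino acid response, the E-box CACGTG bound by MYC and related factors, the gamma-activated sequence TTCNNNGAA of interferon gamma-induced genes, the interferon-stimulated core (GAAA, any 2 bases, GAAA), the palindrome of nuclear respiratory factor 1 (GCGC, any base, TGCGC), and the CCAAT box CCAAT. The capitals in Iars mark an E-box at positions -69 to -64 from the start and CCAAT boxes at -79 to -75 and, on the other strand, at -33 to -29. Just past the start, at positions 7 to 15, Iars held a match to the C/EBP-ATF response element on the opposite strand, shown in capitals with its surroundings.
Iars, chr13:49682125-49682154, plus strand: gcactgtcagtATTGCATCAcctccagacg
Mars2, chr1:55237169-55237198, plus strand: ccgtccagctGCGCACGCGCcctttcccgt
The stretch of Mars2 shows its match to the palindrome of nuclear respiratory factor 1, on the opposite strand at positions 3 to 12. Mars2 also held a CCAAT box at -36 to -32, on the opposite strand. In Yars2 and Lars2 none of these letters was found in the window. Of 27025 mouse promoters of the same length, 0.969% held the C/EBP-ATF response element, 7.24% the E-box, 4.78% the palindrome and 37.9% a CCAAT box. These shares were not matched for base content. G and C made up between 55.2% (Iars) and 64.4% (Kars) of the 250 bases before the start, against a median of 52.0% over all promoters. No matches overlapped one another. A match is a run of letters, and binding was not measured.

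Other genes of aminoacylation were sparse in the Treg table. None of 17 further cytosolic synthetases had a row. No gene of the lists of synthetase complex scaffolds and elongation factors (9 genes) or mitochondrial translation factors (19 genes) had a row.

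Of 129 listed genes that make, mature and move tRNA, 19 had a row in the Treg table. The lists were drawn up after their values had been seen, and they carry no test. These 19 were lower in the spinal cord with no overlap between the groups, in a table where 97.6% of genes did not overlap and 38.5% were lower without overlap. Those without a row are not analysed here. Among 14 of 78 tRNA modification genes, the fold by which the mean was lower in the spinal cord lay between 2.18 (Trmo) and 4.64 (Pus7l). Trmt61a, the catalytic subunit of a tRNA adenosine methyltransferase, had 6.70, 5.86 and 3.44 FPKM in the spinal cord and 19.7, 28.8 and 23.1 FPKM in the spleen. Nsun2, a tRNA cytosine methyltransferase, averaged 14.0 ± 1.43 FPKM in the spinal cord and 39.0 ± 3.72 FPKM in the spleen (SD, n = 3 each). Mettl1, the tRNA guanosine methyltransferase, averaged 20.7 ± 8.74 FPKM in the spinal cord and 55.1 ± 11 FPKM in the spleen. The pseudouridine synthase Pus7 was 2.76-fold lower. The queuine transferase subunits Qtrt1 and Qtrt2 were 2.83-fold and 3.02-fold lower.

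Of 24 genes of RNA polymerase III and its factors, which transcribe tRNA genes, 2 had rows. Polr3d, a subunit of the polymerase, had 5.84, 11.95 and 14.7 FPKM in the spinal cord and 24.7, 27.9 and 21.3 FPKM in the spleen. Of 27 genes of tRNA processing and export, 3 had rows. Xpot, the tRNA exporter, had 13.3, 8.42 and 8.24 FPKM in the spinal cord and 24.0, 20.4 and 25.4 FPKM in the spleen. Xpo5, which exports microRNA precursors and also binds tRNA, was 2.31-fold lower in the spinal cord. Rpp25, a subunit of ribonuclease P, was listed at 0 in all spinal cord libraries and at 0.77, 1.24 and 2.53 FPKM in the spleen. The mitochondrial ribosomal protein genes Mrpl38 and Mrpl50, the 2 of that family with a row, were 2.31-fold and 2.54-fold lower.

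**Figure D3:**
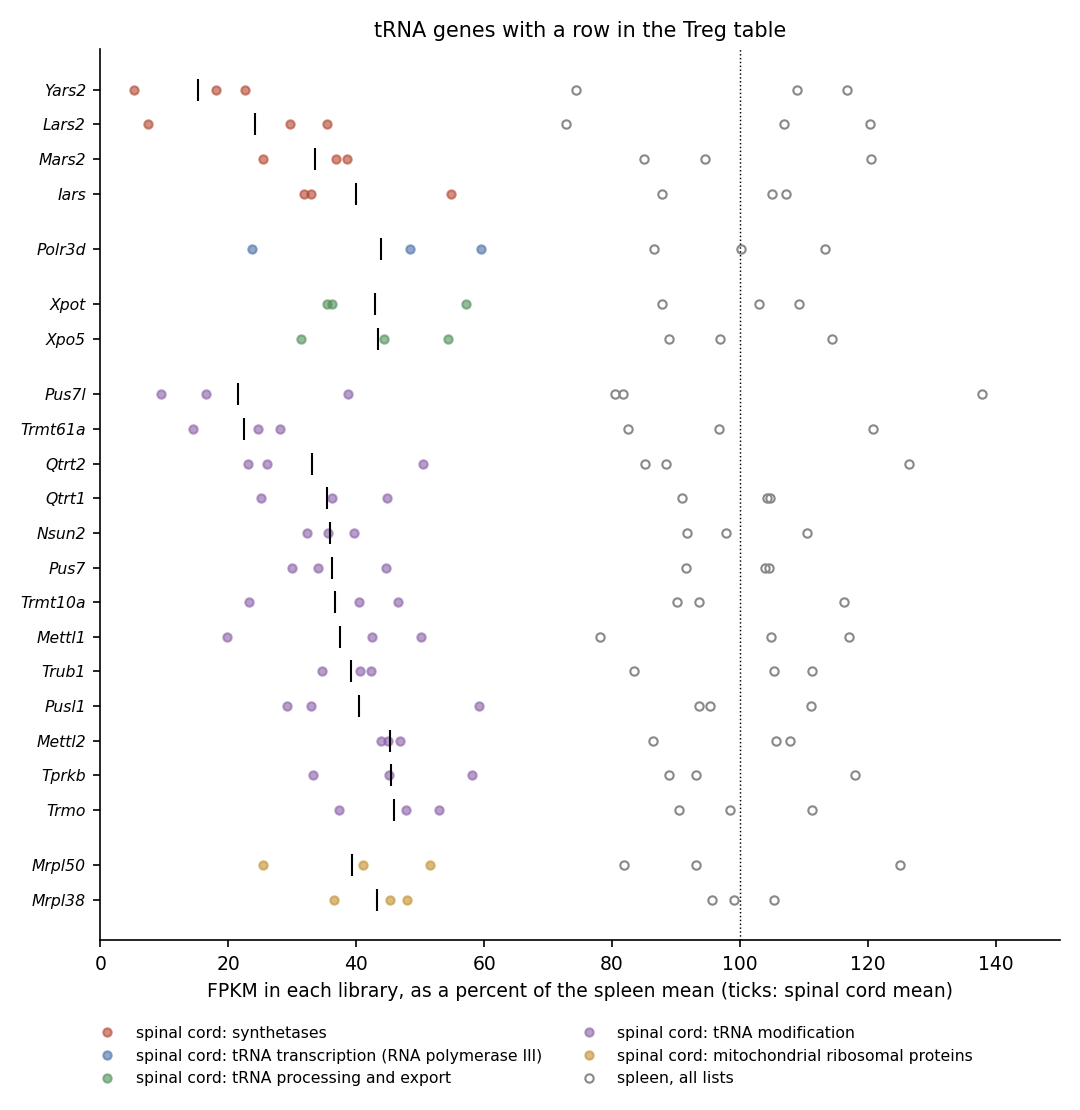
FPKM in each library as a percent of the spleen mean (horizontal axis) for the 4 synthetases and for tRNA and mitochondrial ribosomal protein genes with a row in the Treg table, not all of which are drawn; filled points are spinal cord libraries, ticks their mean and open points spleen libraries. In every gene drawn all spinal cord points lie left of all spleen points; Rpp25, listed at 0 in the spinal cord, is not drawn.

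Related lists went in both directions in the spinal cord. Of 9 tested MYC and growth targets, 8 fell and 1 rose (limma with Benjamini-Hochberg adjustment over the table). Over all tested genes 38.6% were called lower and 61.0% higher. The median log2(FPKM + 1) difference of the 9 targets was -1.25, against -1.29 over all lower genes and 0.95 over all genes. The targets as a set thus lay no further below 0 than the lower genes of the table. Tfrc, the transferrin receptor, fell to 27.8 ± 12.3 FPKM in the spinal cord, against 155 ± 19.7 FPKM in the spleen. Srm, spermidine synthase, fell to 39.2 ± 14.8 FPKM, against 164 ± 19.2 FPKM in the spleen, and the nucleolar protein gene Ncl was 3.09-fold lower. Odc1, ornithine decarboxylase, rose, with 109, 352 and 90.1 FPKM in the spinal cord and 37.2, 42.4 and 44.5 FPKM in the spleen. Of 3 tested translation initiation genes, Eif2b1 and Eif4g2 fell by 1.15 and 1.23 on the log2(FPKM + 1) scale, and Eif2ak2, the interferon-induced kinase PKR, rose 3.42-fold, a call that ended with equal totals.

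ATF4 switches on the genes of the amino acid response when charged tRNA runs short. Of 26 on the list, 4 were tested and all 4 were higher in the spinal cord, where 61.0% of all tested genes were called higher. The authors had kept only genes changed in this contrast, so these calls add no support. With equal totals 2 of the 4 were called. The median log2(FPKM + 1) difference of these 4 was 1.64, against 1.32 over the higher genes and 0.95 over all genes. Pck2, mitochondrial phosphoenolpyruvate carboxykinase, had 42.5, 30.1 and 49.3 FPKM in the spinal cord and 6.51, 7.90 and 7.96 FPKM in the spleen. Chac1, a glutathione-degrading enzyme, had 4.33, 6.95 and 5.21 FPKM in the spinal cord, against 0, 1.18 and 1.06 FPKM in the spleen. With a spleen mean of 0.747 FPKM, Chac1 passed the filter through its spinal cord level. Atf3 and Cebpg, transcription factors of this response, had log2(FPKM + 1) differences of 1.31 (SE 0.38) and 0.91 (SE 0.35), calls that ended with equal totals and, for Cebpg, also after quantile normalization. Cbs, cystathionine beta-synthase, was below the filter, with 0.52, 0.71 and 0.62 FPKM in the spinal cord and listed at 0 in all spleen libraries. None of 19 amino acid transporters on the list had a row. All 4 tested genes of the tryptophan and interferon gamma list rose, against 61.0% of all tested genes called higher. Among the 4, Gbp2, an interferon-induced GTPase, rose 3.26-fold and Gbp5, another, 9.70-fold. Cxcl10, an interferon-induced chemokine gene, rose 9.22-fold. Socs1, an inhibitor of cytokine signalling, rose 1.89-fold, but its difference was -0.04 with equal totals and 0.16 after quantile normalization, with no call in either.

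Of 12 Treg markers, Ctla4 and Tnfrsf18 had rows and rose in the spinal cord, also with equal totals. A table of genes changed between the Treg groups cannot check the labelled cell type, since markers alike in both have no row. After quantile normalization Ctla4 was still called, while Tnfrsf18 had a difference of 0.10, against 1.39 as deposited, and was not called. The other 10 are not analysed here. Of 11 macrophage and monocyte markers 3 had rows (Cd14, Cd68 and Csf1r), with a summed level of 39.5 to 52.7 FPKM in the spinal cord and 4.79 to 14.2 FPKM in the spleen. Of 10 neutrophil markers 2 had rows (S100a8 and Mmp8), with sums of 28.4 to 83.0 FPKM in the spinal cord and 4.22 to 9.77 FPKM in the spleen. The summed rows of the microglia list (4 of 14) gave 43.3 to 50.03 FPKM in the spinal cord and 19.9 to 21.8 FPKM in the spleen, with C1qb at 0 in every spleen library. The B cell marker Cd79b (1 of 6) had 2.66 to 5.38 FPKM in the spinal cord and was listed at 0 in the spleen. The summed rows of the endothelial and fibroblast list (2 of 9, Pecam1 and Ly6c1) gave 163 to 410 FPKM in the spinal cord and 39.4 to 44.4 FPKM in the spleen, and Cnp of the astrocyte and oligodendrocyte list (1 of 11) 159 to 208 FPKM in the spinal cord and 48.0 to 56.7 FPKM in the spleen. Cd2 of the T cell list (1 of 13) had 1484 to 1773 FPKM in the spinal cord and 685 to 737 FPKM in the spleen. The part of other cells in the lower synthetase levels was not tested. None of 16 ribosomal RNA and RNA quality transcripts had a row in either table.

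In co-cultured microglia, 3 synthetases stood above their control level in every library. The tryptophanyl enzyme differed far more than the arginyl and lysyl enzymes. Wars had 6.53 times the control mean, Kars 1.98 times and Rars 1.78 times. The last 2 depend on how the libraries are scaled: with equal totals the log2 difference of Rars was -0.12 and that of Kars 0.026. The groups did not overlap for any of the 3, nor for any other gene tested in microglia (100% of 1529 genes, 53.4% higher and 46.6% lower in co-culture, and the same shares were called by limma).

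Wars (gene 22375, chromosome 12, 108860030 to 108894175), the cytosolic tryptophanyl-tRNA synthetase, had 127, 126 and 127 FPKM in co-culture and 20.7, 19.3 and 18.3 FPKM in control microglia. The libraries of each group lay close together, with a coefficient of variation of 0.724% in co-culture and 6.34% in the controls. The log2(FPKM + 1) difference, co-culture minus control, was 2.65 (SE 0.06), and 118 of 817 higher genes (14.4%) had a larger one. It was 1.72 with equal totals and 1.80 after quantile normalization.

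Kars (gene 85305, chromosome 8, 111993439 to 112011354) encodes the class II lysyl-tRNA synthetase, which serves cytosol and mitochondria from 1 gene and belongs to the multi-synthetase complex. It had 66.2, 64.5 and 67.2 FPKM in co-culture and 33.5, 33.2 and 33.3 FPKM in the controls. The groups were 31.0 FPKM apart at their nearest libraries, and the log2(FPKM + 1) difference was 0.96 (SE 0.04).

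Rars (gene 104458, chromosome 11, 35808381 to 35834528), the cytosolic arginyl-tRNA synthetase of the same complex, had 51.4, 50.3 and 53.2 FPKM in co-culture and 30.0, 28.3 and 28.6 FPKM in the controls. Its mean was 51.6 ± 1.44 FPKM in co-culture and 28.9 ± 0.898 FPKM in the controls (SD, n = 3 each), a log2(FPKM + 1) difference of 0.81 (SE 0.05). It lay near the inner edge of the table, since its log2 fold change of 1.05 in the authors' deposited table was larger in size than that of 144 of 2186 genes. The authors' deposited table gave 1.20 for Kars and 2.89 for Wars.

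The median log2(FPKM + 1) difference of the 3 was 0.96, against 1.32 over the 817 higher genes and 0.74 over all 1529 genes. The order of levels also differed between the groups. In the controls Wars (19.4 ± 1.23 FPKM) stood below Rars and Kars (33.3 ± 0.181 FPKM), and in co-culture Wars (127 ± 0.918 FPKM) stood above Kars (65.9 ± 1.34 FPKM) and Rars. In each group the 3 ranges were apart.

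**Figure D4:**
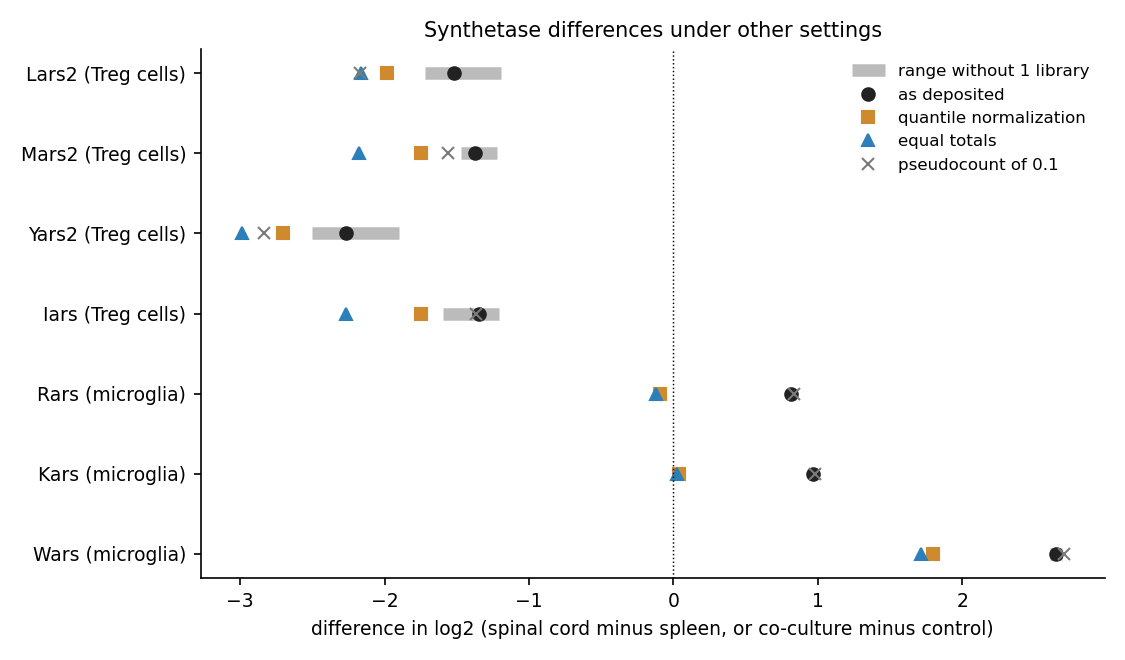
Difference in log2 of each synthetase (horizontal axis; spinal cord minus spleen for Treg cells, co-culture minus control for microglia) with the values as deposited and under other settings; grey bars span the values with 1 library left out. The 4 Treg genes stay below 0 throughout and Wars stays above 0, while Rars moves to -0.12 and Kars to 0.026 with equal totals.

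The promoter of Kars is shown because it is the 1 of the microglial synthetases found in the promoter table. It ends at the start of the gene, and the capitals mark, in order, a CCAAT box on the opposite strand (positions -163 to -159), the palindrome of nuclear respiratory factor 1 (-49 to -40) and the gamma-activated sequence (-9 to -1).
Kars, chr8:112011355-112011604, minus strand: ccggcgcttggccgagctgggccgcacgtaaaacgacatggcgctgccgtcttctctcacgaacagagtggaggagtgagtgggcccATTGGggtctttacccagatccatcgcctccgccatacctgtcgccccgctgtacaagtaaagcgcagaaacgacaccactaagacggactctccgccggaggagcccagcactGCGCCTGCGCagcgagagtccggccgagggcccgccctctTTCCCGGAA
The gamma-activated sequence was found in 8.47% of the 27025 promoters, and the interferon-stimulated core, absent from all 5 windows, in 3.49%. By the GENCODE annotation of GRCm38, no exon of the 7 synthetases shares bases with an exon of another gene on either strand.

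Of the tryptophan and interferon gamma list, 12 of 13 genes had a row. All 9 tested were higher in co-culture and called by limma (Benjamini-Hochberg adjustment over the table). The authors had kept only genes changed in this contrast, so these calls add no support. Ciita, with a mean of 5.16 FPKM in co-culture and 0.063 FPKM in the controls, passed the filter through its co-culture level. Over all tested genes 100% were called, and 53.4% were called higher. The median log2(FPKM + 1) difference of the 9 was 5.51, against 1.32 over the 817 higher genes and 0.74 over all genes. All 9 were also called with equal totals. Gbp2 rose to 2064 ± 43.1 FPKM in co-culture, against 17.8 ± 8.39 FPKM in the controls. Cxcl9, an interferon gamma-induced chemokine gene, had 147, 145 and 151 FPKM in co-culture and 1.69, 0.53 and 1.14 FPKM in the controls. Gbp5 rose 81.6-fold and Socs1 69.9-fold. These 4 were named as the largest of the list. Wars (2.65) lay above 2 of the 9 tested genes, Ciita (2.53) and Kynu (2.485), on the log2(FPKM + 1) scale. The genes of tryptophan breakdown on the list were chosen for naming after their values were seen. Kynu, kynureninase, had 13.5, 12.3 and 12.6 FPKM in co-culture and 1.53, 1.25 and 1.62 FPKM in the controls. Ido1, which opens the tryptophan ring, had 0.57, 0.58 and 0.53 FPKM in co-culture and 0.06, 0 and 0.06 FPKM in the controls. Ido2 and Kmo likewise stayed below the filter in level, at 0.22 to 0.56 FPKM in co-culture and 0 to 0.08 FPKM in the controls.

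Of 19 transporters of matching amino acids, 3 were tested. Slc7a2, a carrier of arginine and lysine, the substrates of Rars and Kars, had 61.5, 61.3 and 56.5 FPKM in co-culture and 2.89, 2.44 and 2.02 FPKM in the controls, and rose 24.4-fold. Slc7a5, the large neutral amino acid carrier that takes up tryptophan, fell to 1.86, 2.08 and 2.90 FPKM in co-culture, against 6.98, 5.64 and 5.53 FPKM in the controls. Slc7a8, a second carrier of neutral amino acids, rose 1.84-fold, while with equal totals its difference was -0.08 and was not called.

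Of 5 tested genes of the amino acid response, 4 fell and 1 rose in co-culture, where 46.6% of all tested genes fell and 53.4% rose. Their median log2(FPKM + 1) difference was -1.33, against -1.26 over all lower genes and 0.74 over all genes. Aldh1l2, a mitochondrial folate enzyme and 1 of the 4, had a difference of -0.27 and was not called after quantile normalization. Pck2 had 6.65, 6.82 and 9.04 FPKM in co-culture and 22.6, 22.1 and 23.4 FPKM in the controls, and fell 3.02-fold. Atf5, a transcription factor of this response, fell 2.64-fold, and Phgdh, the first enzyme of serine synthesis, had 6.02, 6.61 and 11.7 FPKM in co-culture and 23.6, 19.1 and 20.9 FPKM in the controls. Cebpb rose 1.79-fold, but its difference was -0.12 and not called with equal totals, and -0.16 and called lower after quantile normalization. Chac1, below the filter, had 0.42, 0.42 and 0.72 FPKM in co-culture and 1.38, 1.35 and 1.26 FPKM in the controls. Pck2 and Chac1 thus lay on opposite sides of 0 in the 2 comparisons, higher in spinal cord Treg cells and lower in co-cultured microglia, and the difference between the comparisons was not tested. Eif5a and Eif2ak2 of the initiation list rose 1.84-fold each, and with equal totals both lay below 0 with no call; after quantile normalization Eif5a was called lower, at -0.09. Max and Ldha of the growth list rose 2.26-fold and 2.56-fold.

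**Figure D5:**
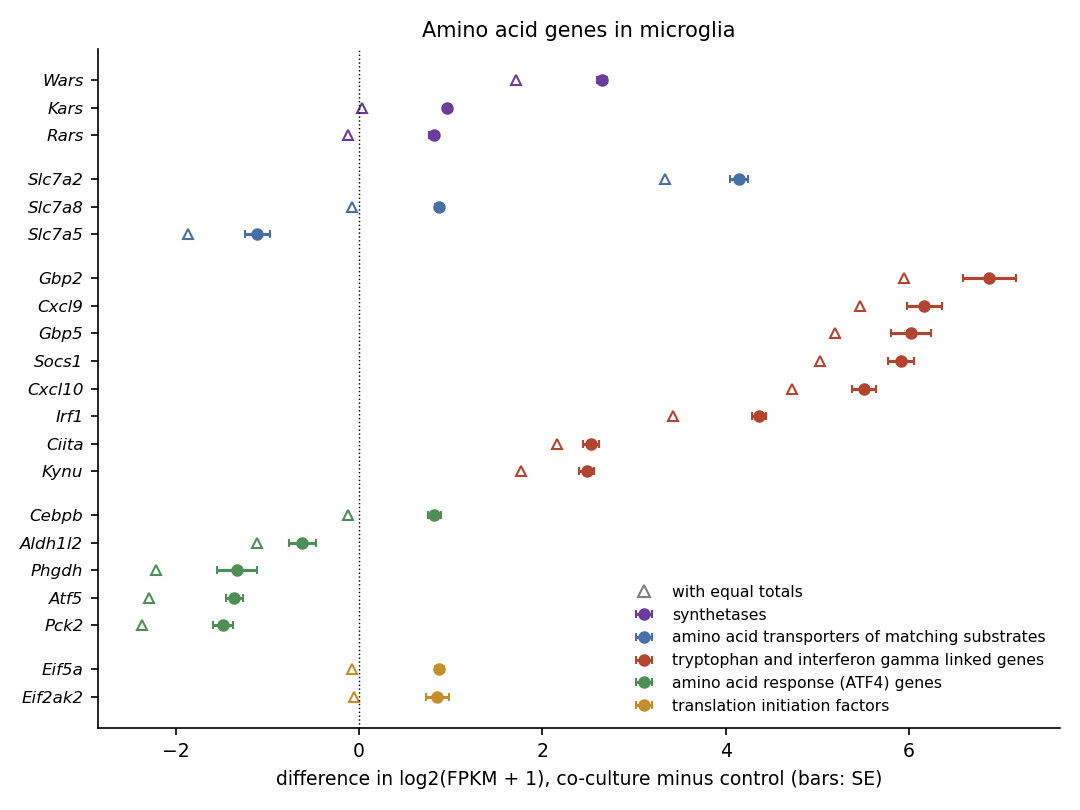
Difference in log2(FPKM + 1), co-culture minus control, with its SE (horizontal axis) for the 3 synthetases and tested genes of 4 related lists in microglia, not all of which are drawn; filled points use the values as deposited and open triangles equal totals. Wars (2.65) sits among the lowest of the interferon gamma-linked genes, and Slc7a2 (4.15) stands apart from the other transporters.

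Of 17 further cytosolic and 17 further mitochondrial synthetase genes, none had a row in the microglia table. Mrpl13, the 1 mitochondrial ribosomal protein gene with a row, was 1.82-fold higher in co-culture, with a difference of -0.09 with equal totals. No gene of the tRNA transcription, processing or modification lists had a row. Of 14 microglial markers, 8 were tested. Of these 5 rose, Aif1 and C1qb among them, and 3 (Cx3cr1, Gpr34 and Tmem119) fell. Over all tested genes 53.4% rose and 46.6% fell. With equal totals 3 of the markers rose and 3 fell. Cx3cr1, the fractalkine receptor, had 1.26, 1.36 and 1.74 FPKM in co-culture and 137, 144 and 126 FPKM in the controls. Of 12 Treg markers Ikzf2 and Lck had rows, with a summed level of 1.71 to 1.8 FPKM in co-culture and 0.6 to 0.8 FPKM in the controls. The summed rows of the macrophage and monocyte list (4 of 11, Cd14, Fcgr1, Itgam and Mrc1) gave 988 to 1024 FPKM in co-culture and 682 to 715 FPKM in the controls. Cd14 was 3.02-fold lower in co-culture, and Fcgr1, Itgam and Mrc1 were called higher. With equal totals Itgam had a difference of 0.14 and was not called. Of 13 T cell markers, 3 had a row. Their sum was 1.88 to 2.09 FPKM in co-culture and 11.6 to 12.4 FPKM in the controls, most of it Cd28, which was lower in co-culture. Lck, the T cell kinase, had 0.54, 0.47 and 0.66 FPKM in co-culture and 0.17, 0.19 and 0.38 FPKM in the controls, and Cd5 had 0.05, 0.05 and 0 FPKM in co-culture and 0.23, 0.33 and 0.3 FPKM in the controls. The summed rows of the endothelial and fibroblast list (5 of 9, Pecam1, Ly6c1, Col1a1, Col1a2 and Dcn) gave 83.6 to 167 FPKM in co-culture, highest in library 3, and 270 to 304 FPKM in the controls. Its members went in both directions: Col1a1 and Col1a2 were 4.26-fold and 3.15-fold lower in co-culture, while Pecam1 and Dcn were 4.19-fold and 3.69-fold higher. Ly6c1, below the filter, had 1.01, 0.54 and 1.03 FPKM in co-culture and 0.16, 0 and 0 FPKM in the controls. Those of the astrocyte and oligodendrocyte list (4 of 11, Aqp4, Mbp, Cnp and Mag) gave 29.98 to 31.7 FPKM in co-culture and 28.9 to 32.6 FPKM in the controls. These sums also join opposite directions, with Mbp and Aqp4 2.65-fold and 2.73-fold lower in co-culture and Cnp and Mag 1.93-fold and 3.02-fold higher. Neutrophil and B cell markers had no row. The part of other cells in the synthetase levels was not tested.

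The gene whose log2(FPKM + 1) over the 6 libraries was most like that of a synthetase was named for 6 of the 7 by its Pearson r, as a description. In Treg cells it was Tsr1, a ribosome assembly gene, for Lars2 (r = 0.994), Ptprj, a receptor phosphatase gene, for Yars2 (r = 0.994), and Gal, a neuropeptide gene, for Iars (r = 0.992). In microglia it was Psmb8, an immunoproteasome subunit gene, for Kars, Calhm6 for Wars and Eif4e3 for Rars, each with r = 0.9999. The points share 2 groups that differ, and between 146 and 240 of 1047 genes reached r above 0.9 for each Treg synthetase. For each microglial synthetase, between 781 and 783 of 1489 genes did so.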

How the data were processed

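Per the file headers, the values of the deposited tables are FPKM, which the authors computed for 6 libraries each. The submitters' processing notes name Bowtie2, RSEM 1.3.1, DESeq2 1.4.5 and GRCm38.p6 but no roles for them. Beside FPKM the authors deposited a log2 fold change and a Q value, an adjusted p-value, per gene, and no source names their test. A word found in no label heads the microglial fold change, whose sign fitted co-culture over control in all 2186 genes. On the values, every deposited gene had a Q value below 0.05 and lay at least 1 from 0 in log2 fold change.

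The tables were normalized separately and fitted separately. Genes with a mean of at least 1 FPKM over 6 libraries were kept (1072 and 1529 genes), transformed to log2(FPKM + 1) and fitted with limma 3.58.1 in R 4.3.3 (eBayes with a trend), with Benjamini-Hochberg adjustment over those genes and calls at 0.05. The log2(FPKM + 1) scale understates changes of low genes. Folds are ratios of mean FPKM. For synthetases the fit gave the difference and its SE only. Genes of the related lists come from the same selected tables, so a call by limma adds no support beyond the authors' selection. The fit was tested on simulated data. Python 3.11.15 with pandas 2.3.3, numpy 2.4.6 and matplotlib 3.10.9 did the rest. Members and lists were chosen with earlier results of these data known. The rule for named genes took all synthetases, and of each list the called members, or the 4 with the largest difference where more than 4 were called. It also took the most alike gene of each synthetase. Some genes the rule took are not reported here. Alternatives were another pseudocount, no filter, equal totals, quantile normalization, no trend, a replicate block and leaving out each library.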

Additional observations from a re-analysis of the deposited data

How the results depend on the processing

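The 4 Treg synthetases and Wars kept their direction with a pseudocount of 0.1, no filter, no trend and a replicate block. They also did so with equal totals, quantile normalization and each library left out. Most of these settings could not have reversed it. No filter, no trend and the replicate block leave the difference of a gene unchanged when the groups are of equal size. Where groups do not overlap, a pseudocount of 0.1 or a library left out cannot turn the sign. Equal totals could only lower the Treg differences, which were already below 0. Rars reversed, to -0.12 with equal totals and -0.10 after quantile normalization. Kars came close to 0, at 0.026 and 0.037, both smaller than its SE of 0.04 as deposited. Equal totals and quantile normalization force the libraries alike over a table of selected genes, which takes out any shift they share. The median log2 difference of the 4 Treg synthetases was -1.44 as deposited, -1.86 with a pseudocount of 0.1, -2.22 with equal totals and -1.87 when quantile normalized, and lay between -1.66 and -1.22 with 1 library left out. That of the 3 microglial synthetases was 0.96 as deposited, 0.026 with equal totals and 0.037 when quantile normalized, and between 0.95 and 0.98 with 1 library left out. With equal totals 680 of 1072 Treg genes were called, against 1068 as deposited, 39.1% of the calls being higher against 61.2% as deposited, and 6 genes of the related lists were called higher in Treg cells. In microglia 1268 of 1529 genes were called with equal totals, 42.4% of them higher. Equal totals shifted the median difference of all genes, which was 0.09 in Treg cells (0.95 as deposited) and -0.11 in microglia (0.74 as deposited). With 1 library left out, between 1028 and 1044 Treg genes and between 1505 and 1544 microglial genes were called. The labels do not say whether replicate numbers pair the samples. Same-numbered libraries deviated together with r between -0.05 and -0.0029 in Treg cells and between -0.04 and 0.17 in microglia. Co-culture libraries 2 and 3 were most like the control of their own number, while co-culture library 1 and the spinal cord libraries were not. With so few libraries per group these values cannot settle whether the samples were paired. With the replicate block 1064 Treg genes and 1529 microglial genes were called. Depth is unknown, and a level such as 0.40 FPKM of Lars2 comes with no estimate of counting error.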
